A study of Drosophila melanogaster with 36 samples.

Results

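The genes described here form the circadian clock of the fruit fly Drosophila melanogaster, measured in female heads and abdomens with and without mating. They were chosen by their FlyBase symbols alone: Clk, cyc, per, tim, vri, Pdp1, cwo, cry and the clock output gene to, which make 9 of the 17552 genes in the deposited count table. The females all came from the same IV base population and differed in whether, and with which males, they had mated. Of 9 pools of heads and 9 pools of abdomens, 3 of each tissue came from females mated to males of the polygamous populations P1, P2 and P3, another 3 from females mated to males of the monogamous populations M1, M2 and M3, and the other 3 from unmated virgins. The 6 male populations, held at a census size of 200, had evolved for 182 generations, followed by 1 generation of rearing in common conditions. Monogamous flies were kept as random pairs and polygamous flies in groups of 5 females and 5 males. Females mated at 3 days of age and every female was frozen at 4 days, which in mated females was 24 h after mating. A library pooled 20 heads or 20 abdomens, and a mated library stands for 1 male population. The hour of the day at which each pool was frozen is not given in the sources used here, and hour and group cannot be told apart.

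In the fly clock, the transcription factors Clock (Clk) and Cycle (cyc) act as a pair that switches on period (per) and timeless (tim), whose proteins return to the nucleus and block the pair. A further loop runs through vrille (vri) and PAR-domain protein 1 (Pdp1), which the pair also switches on and which repress and activate Clk. In head tissue, photoreceptors, neurons and glia carry clocks. Transcripts of per, tim, vri and Pdp1 are known there to be highest early in or towards the middle of the night, and those of Clk and cry around its end. Transcripts of cyc do not cycle, and the phases of cwo and to are not given here. Clockwork orange (cwo) is a repressor of genes that the pair activates, cryptochrome (cry) is a blue-light receptor that triggers the loss of Tim protein, and takeout (to) is an output gene linked to feeding.

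Totals per library were 40396031 to 64761633 counts in heads and 41057456 to 56772245 counts in abdomens, and all 9 clock genes passed the filter on low counts in every comparison. The photoreceptor opsin ninaE stood at 38420 to 48490 CPM, the counts of a gene per 1000000 counts of its library, in mated heads and 35159 to 41083 CPM in virgin heads, against 36.3 to 49.5 CPM in mated and 32.9 to 37.8 CPM in virgin abdomens. The germline gene osk held 1468 to 2010 CPM in mated abdomens and 1690 to 1948 CPM in virgin abdomens, and at most 2.77 CPM in any head library. Of the head libraries 3 stood apart: a list of 15 midgut protease genes summed to 4499 CPM in M1, 9969 CPM in M2 and 6933 CPM in virgin 1, and to 7.003 to 65.2 CPM in the other 6. Results in heads are therefore also given without these 3 libraries. Unless another tool is named, adjusted p-values come from the quasi-likelihood test of edgeR, adjusted over all tested genes by the Benjamini-Hochberg method. Log2 changes are given with their standard error, and levels as CPM of all counts in a library.

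In heads, mating was followed by lower levels of 4 clock genes and higher levels of 2 others. Of the 9 genes, 2 were higher and 4 lower in mated than in virgin females at an adjusted p below 0.05, against 0.863% and 1.35% of the 10886 genes tested (2.21% in either direction). The genes that fell were tim, vri, Pdp1 and per, of the group highest early in or towards the middle of the night. Those that rose were Clk and cry, of the group highest around its end. This grouping does not cover cwo and to, whose phases are not given here. By unadjusted p, Clk ranked 4, vri 8, Pdp1 10 and tim 11 among the 10886 genes. The same 6 genes were those in which mated and virgin libraries did not overlap, which held for 8.27% of all tested genes.

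**Figure D1:**
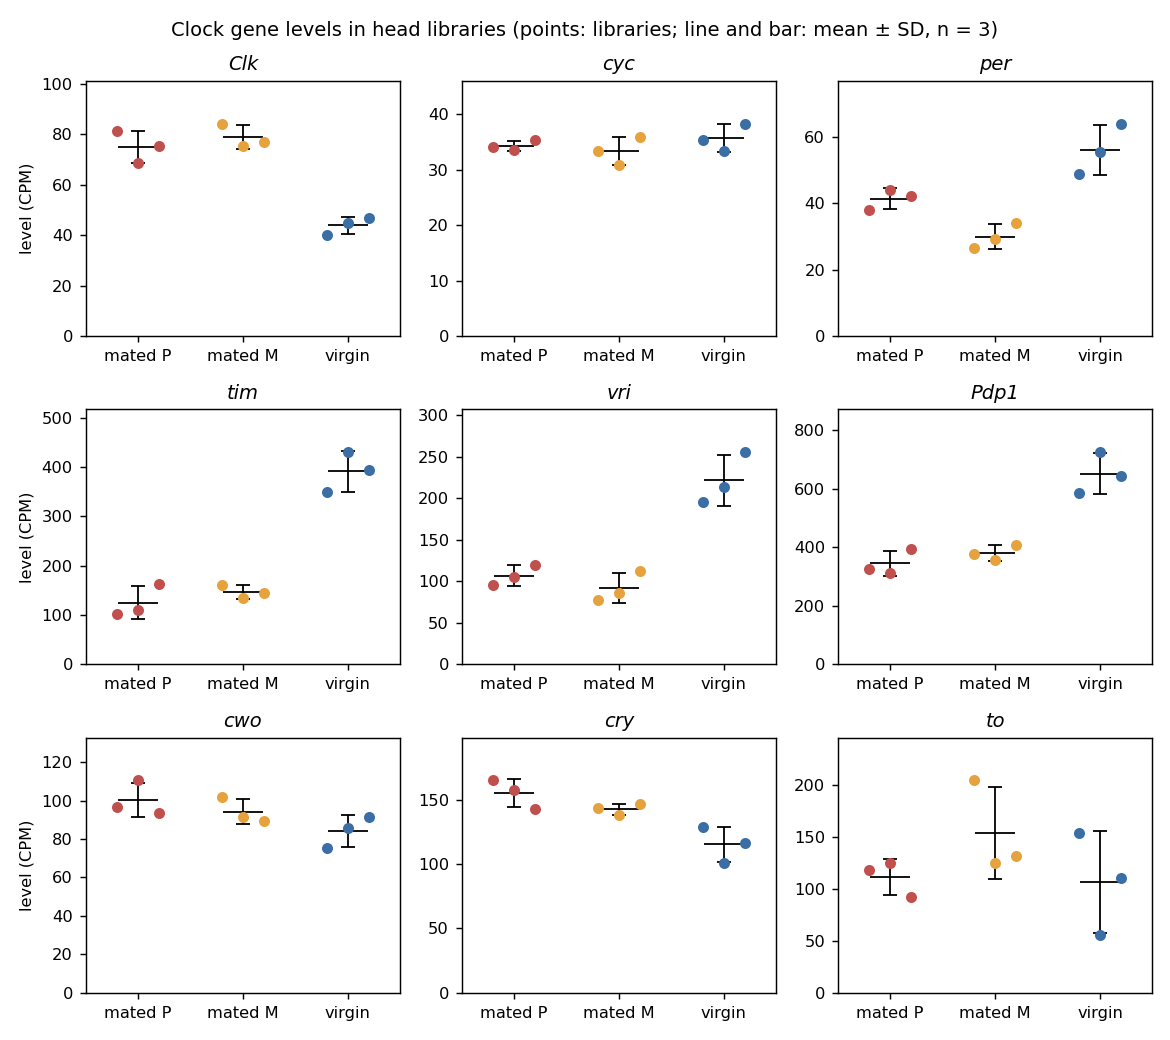
Levels of the 9 clock genes in heads, in CPM, with a point for each library and the mean ± SD of the 3 libraries of a group. In tim, vri, Pdp1 and per all virgin points lie above all mated points, and in Clk and cry all lie below them, whereas cyc overlaps throughout.

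Of the activators, Clk had 81.2, 68.4 and 75.1 CPM in heads of females mated to P1, P2 and P3 males and 84.2, 75.4 and 76.8 CPM after mating to M1, M2 and M3 males, against 40.0, 45.0 and 46.7 CPM in the virgin heads. The lowest mated library was thus well above the highest virgin library. The log2 change, mated minus virgin, was 0.85 ± 0.08 (95% interval 0.68 to 1.02, adjusted p = 0.00096). Its partner cyc had 34.2, 33.5 and 35.4 CPM with P males and 33.4, 31.0 and 36.0 CPM with M males, against 35.3, 33.4 and 38.4 CPM in virgins. The groups overlapped, and the change of cyc was -0.03 ± 0.06 with an interval of -0.16 to 0.10 (adjusted p = 0.830). The count of Clk reads per cyc read was 2.04 to 2.52 in mated heads and 1.13 to 1.35 in virgin heads, a ratio within a library that does not depend on how libraries are scaled.

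Among the repressors of the first loop, tim moved most. It had 101, 111 and 163 CPM in heads after mating to P males and 162, 134 and 144 CPM after mating to M males, against 349, 431 and 394 CPM in virgin heads. The highest mated library, P3, was still far below the lowest virgin library. The change was -1.49 ± 0.14 (interval -1.80 to -1.17, adjusted p = 0.0022), that is, tim was 2.80-fold lower in mated heads. The other repressor, per, had 37.9, 44.1 and 42.3 CPM with P males and 26.6, 29.2 and 34.2 CPM with M males, against 48.9, 55.5 and 64.1 CPM in virgins. All mated libraries were below all virgin libraries, and the M libraries were the lowest. The change of per was -0.63 ± 0.09 (interval -0.83 to -0.43, adjusted p = 0.0082).

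Both transcription factors of the second loop were lower in mated heads. The repressor gene vri had 95.7, 105 and 120.1 CPM with P males and 77.5, 85.8 and 112 CPM with M males, against 196, 214 and 256 CPM in virgins. Again the groups did not overlap, and vri fell by 1.12 on the log2 scale (SE 0.11, adjusted p = 0.0015), or 2.18-fold. The activator gene Pdp1 had 327, 314 and 395 CPM with P males and 376, 356 and 408 CPM with M males, against 585, 725 and 642 CPM in virgins. Pdp1 fell by 0.80 (SE 0.08, adjusted p = 0.0016), with no overlap between mated and virgin libraries.

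The remaining genes moved less. The light receptor gene cry had 165, 158 and 143 CPM with P males and 144, 138 and 146 CPM with M males, against 129, 101 and 116 CPM in virgins. Mated libraries were all above virgin libraries, with a change of 0.41 ± 0.09 (adjusted p = 0.0406). This call was lost with limma voom (adjusted p = 0.0643), and without M1, M2, M3, P1, P2, virgin 2 or virgin 3, where the adjusted p reached 0.136 and the change stayed between 0.32 and 0.51. The repressor cwo had 96.8, 110.4 and 93.6 CPM with P males and 102, 91.3 and 89.6 CPM with M males, against 75.1, 86.0 and 91.6 CPM in virgins. These groups overlapped, and cwo did not pass the test (0.25 ± 0.09, adjusted p = 0.232). The output gene to varied more between libraries than any other clock gene in heads, with 118, 125 and 91.9 CPM with P males and 204, 125 and 132 CPM with M males, against 154, 55.8 and 110.4 CPM in virgins. Its change of 0.34 ± 0.36 was not called (adjusted p = 0.694), and its interval of -0.53 to 1.21 is the widest of the 9.

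A fit of heads without M1, M2 and virgin 1, the libraries with midgut protease transcripts, kept M3 as its only M library. In its mated mean M3 had the same weight as the P libraries together. The changes in heads were then -1.60 for tim, -1.08 for vri, -0.85 for Pdp1, -0.65 for per, 0.74 for Clk and 0.49 for cry. None of the 6 then passed the adjusted threshold in edgeR, with adjusted p-values of 0.0607 for Clk, vri and Pdp1, 0.0882 for tim, 0.105 for per and 0.167 for cry. With 6 libraries left, no gene at all was called, and 960 genes, including 6 clock genes in the same directions as before, had an unadjusted p below 0.05. With the summed protease level as a covariate instead, the 6 genes were again called, in the same directions. Summed markers of photoreceptors, glia and neurons overlapped between the groups. The 12 photoreceptor genes summed to 71021 to 85593 CPM in mated and 70521 to 79404 CPM in virgin heads, and the 6 glial genes to 1274 to 1588 CPM in mated and 1395 to 1571 CPM in virgin heads. The 8 neuronal genes summed to 2925 to 3744 CPM in mated heads and 3182 to 4071 CPM in virgin heads. The 7 fat body genes summed to 10263 to 12276 CPM in mated and 11907 to 11956 CPM in virgin heads. In this sum P1, P2, P3 and M3 lay below the virgin range, M2 within it and M1 above it. In pooled tissue, fewer cells of a type and less RNA per cell cannot be told apart.

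**Figure D2:**
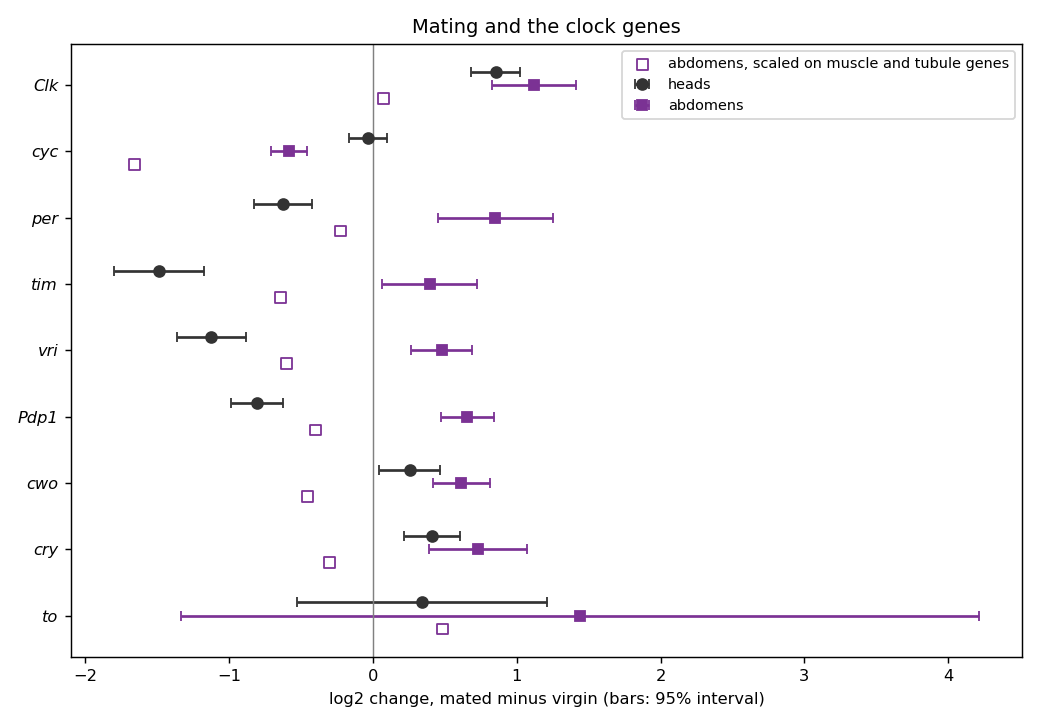
Log2 change of each clock gene, mated minus virgin, with its 95% interval, in heads (circles) and abdomens (filled squares); open squares are abdomens scaled on muscle and renal tubule genes. In heads tim, vri, Pdp1 and per lie below 0 and Clk and cry above it, whereas in abdomens all filled squares but that of cyc lie above 0.

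In abdomens, by contrast, most clock genes moved the same way on the usual scale. Of the 9 genes, 7 were higher (29.0% of all 10350 tested genes) and 1 lower (25.2%) in mated females, whereas 0 were higher and 5 lower when libraries were scaled on muscle and tubule genes, where 3.13% of all tested genes were higher and 70.9% lower. The count of lower clock genes on that scale is thus below the share of all genes. In all, 54.2% of tested genes differed in abdomens, so the count of clock genes stands against a high background. The median change of the 9 genes was 0.66, beside 0.04 for all tested genes. Scaled on muscle and tubule genes, the median of all genes was -1.02 and that of the clock genes -0.40. Values relative to the median of all genes were close under both scalings, with Clk at 1.08 and 1.09, per at 0.81 and 0.80, and cyc at -0.63 and -0.64. This closeness follows by construction, since the scaling shifts all genes by nearly the same amount, and it is no separate support.

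**Figure D3:**
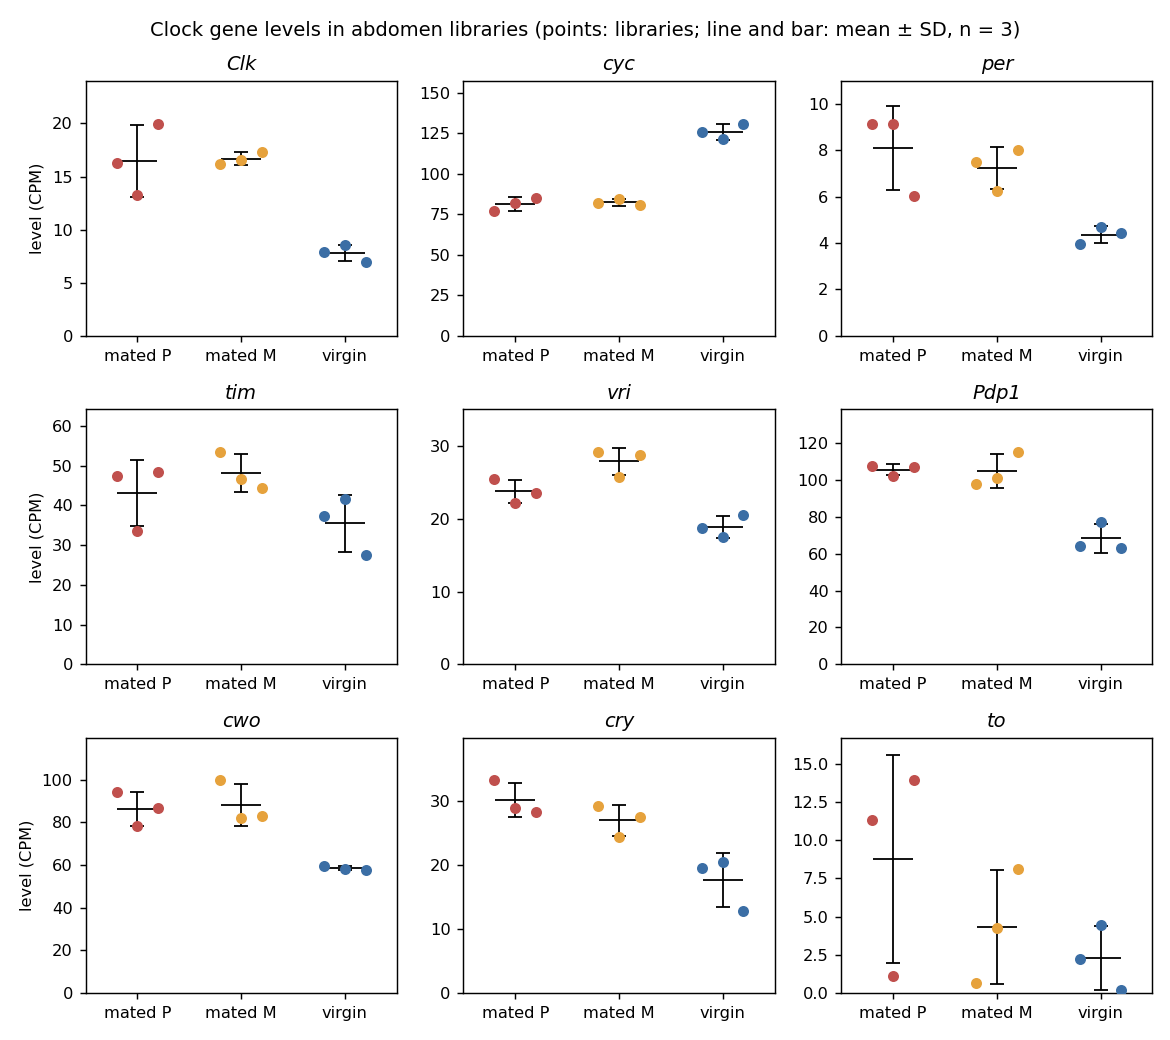
Levels of the 9 clock genes in abdomens, in CPM, with a point for each library and the mean ± SD of the 3 libraries of a group. The virgin points of cyc lie above all mated points, those of Clk, per, vri, Pdp1, cwo and cry lie below them, and tim and to overlap.

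The activators changed in opposite directions in abdomens. Clk had 16.3, 13.2 and 19.99 CPM in abdomens after mating to P1, P2 and P3 males and 16.2, 16.6 and 17.3 CPM with M males, against 7.89, 8.53 and 6.99 CPM in virgins. The groups did not overlap, and Clk was higher by 1.12 ± 0.13 (adjusted p = 2.4e-04), or by 0.07 ± 0.16 on the muscle and tubule scale (adjusted p = 0.690). The partner gene cyc had 76.8, 82.1 and 85.0 CPM with P males and 82.1, 84.7 and 80.7 CPM with M males, against 126, 121 and 131 CPM in virgins. It was the clock gene with the smallest p in abdomens, ranking 77 of 10350, and it fell by 0.59 (SE 0.06, adjusted p = 1.1e-04), or by 1.66 on the muscle and tubule scale. The count of Clk reads per cyc read was 0.161 to 0.235 in mated abdomens and 0.0533 to 0.0704 in virgin abdomens.

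Of the repressors, per had 9.12, 9.14 and 6.002 CPM with P males and 7.47, 6.24 and 8.01 CPM with M males, against 3.95, 4.69 and 4.44 CPM in virgins. Mated libraries were all higher, by 0.85 ± 0.18 (adjusted p = 0.0033), whereas the muscle and tubule scale gave -0.22. The level of tim was 47.5, 33.7 and 48.3 CPM with P males and 53.4, 46.7 and 44.2 CPM with M males, against 37.2, 41.5 and 27.6 CPM in virgins. Here P2 lay within the virgin range and the groups overlapped. The change of tim was 0.40 ± 0.15 (adjusted p = 0.0442), and -0.64 on the muscle and tubule scale. This call was lost with median-of-ratios (RLE) scaling (adjusted p = 0.0563), without the filter on low counts (0.0593), and without M1, P1, P3, virgin 1 or virgin 3, where the adjusted p reached 0.193.

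In the second loop, vri had 25.5, 22.3 and 23.6 CPM in abdomens with P males and 29.2, 25.9 and 28.8 CPM with M males, against 18.8, 17.5 and 20.6 CPM in virgins. Pdp1 had 107, 102 and 107 CPM with P males and 97.5, 101 and 115 CPM with M males, against 64.3, 77.0 and 63.3 CPM in virgins. For both genes every mated library was above every virgin library. The changes were 0.48 ± 0.10 for vri (adjusted p = 0.0025) and 0.66 ± 0.08 for Pdp1 (adjusted p = 3.1e-04), and -0.60 and -0.40 on the muscle and tubule scale.

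The repressor gene cwo had 94.2, 78.4 and 86.8 CPM with P males and 99.7, 82.2 and 83.2 CPM with M males, against 59.4, 58.2 and 57.8 CPM in virgins, whose libraries lay close together. Its change was 0.62 ± 0.09 (adjusted p = 5.5e-04), and -0.45 on the muscle and tubule scale. The light receptor gene cry had 33.2, 28.9 and 28.4 CPM with P males and 29.2, 24.4 and 27.4 CPM with M males, against 19.6, 20.5 and 12.8 CPM in virgins. It was higher by 0.73 ± 0.15 (adjusted p = 0.0031) with no overlap, and -0.30 on the other scale. The output gene to was scarce and uneven, with 11.3, 1.08 and 13.9 CPM with P males and 0.669, 4.23 and 8.11 CPM with M males, against 2.25, 4.43 and 0.191 CPM in virgins. Its lowest virgin library held 9 reads of to, and its change of 1.44 ± 1.17 was not called (adjusted p = 0.325).

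Mated and virgin libraries did not overlap for 7 of the 9 clock genes in abdomens, which held for 50.5% of all tested genes. Several marker lists moved with mating in abdomens. The 14 muscle genes summed to 2469 to 2840 CPM in mated and 1055 to 1436 CPM in virgin abdomens. The 10 renal tubule genes summed to 358 to 431 CPM in mated and 195 to 239 CPM in virgin abdomens. In heads the same 10 genes held 339 to 397 CPM with mating and 383 to 412 CPM in virgins, so their sum is not particular to abdomens. Of these genes, Uro had 58.6 to 104.6 CPM in mated and 15.0 to 19.4 CPM in virgin abdomens, and at most 2.07 CPM in heads. The 7 fat body genes summed to 1608 to 2113 CPM in mated and 875 to 1333 CPM in virgin abdomens, and the 6 glial genes to 179 to 237 CPM in mated and 72.8 to 95.1 CPM in virgin abdomens. The 15 midgut protease genes summed to 3001 to 5988 CPM in mated and 1075 to 2263 CPM in virgin abdomens. The 12 early embryo genes summed to 52.7 to 68.6 CPM in mated and 25.8 to 36.4 CPM in virgin abdomens. In heads these 12 genes held more, at 133 to 163 CPM with mating and 123 to 222 CPM in virgins, so their sum does not mark embryos alone. The 12 photoreceptor genes summed to 83.97 to 108 CPM in mated and 76.8 to 83.8 CPM in virgin abdomens. The 9 germline genes summed to 6007 to 6950 CPM in mated abdomens and 7638 to 8148 CPM in virgin abdomens. The 8 neuronal genes overlapped between the groups, at 48.5 to 76.0 CPM in mated and 60.5 to 73.1 CPM in virgin abdomens. No marker list had a gene at 0 in every library of a tissue. The part of the cells behind these lists in the clock gene values was not tested.

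Ratios between clock genes within a library are free of the scale, and those of tim, vri and Pdp1 to Clk were lower in all mated than in all virgin libraries of both tissues, whereas that of per was so in heads alone. Reads of tim per Clk read numbered 1.25 to 2.17 in mated heads and 8.44 to 9.57 in virgin heads, and 2.41 to 3.30 in mated abdomens and 3.95 to 4.87 in virgin abdomens. Reads of vri per Clk read numbered 0.921 to 1.60 in mated heads and 4.76 to 5.48 in virgin heads. In abdomens the vri ratio was 1.18 to 1.81 with mating and 2.06 to 2.94 in virgins. Reads of Pdp1 per Clk read numbered 4.02 to 5.31 in mated and 13.7 to 16.1 in virgin heads, and 5.35 to 7.70 in mated and 8.15 to 9.05 in virgin abdomens. For per the ratio to Clk was 0.316 to 0.644 in mated and 1.22 to 1.37 in virgin heads, while in abdomens mated libraries at 0.300 to 0.690 spanned the virgin libraries at 0.501 to 0.635. The ratio of per to cry was 0.185 to 0.296 in mated heads and 0.380 to 0.551 in virgin heads, while in abdomens mated libraries at 0.212 to 0.317 overlapped virgin libraries at 0.202 to 0.347. In abdomens tim, vri and Pdp1 were themselves higher with mating on the usual scale, by 0.40, 0.48 and 0.66, beside 1.12 for Clk. A lower ratio to Clk there is thus not a fall of these genes on that scale. The ratios are described without a test.

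**Figure D4:**
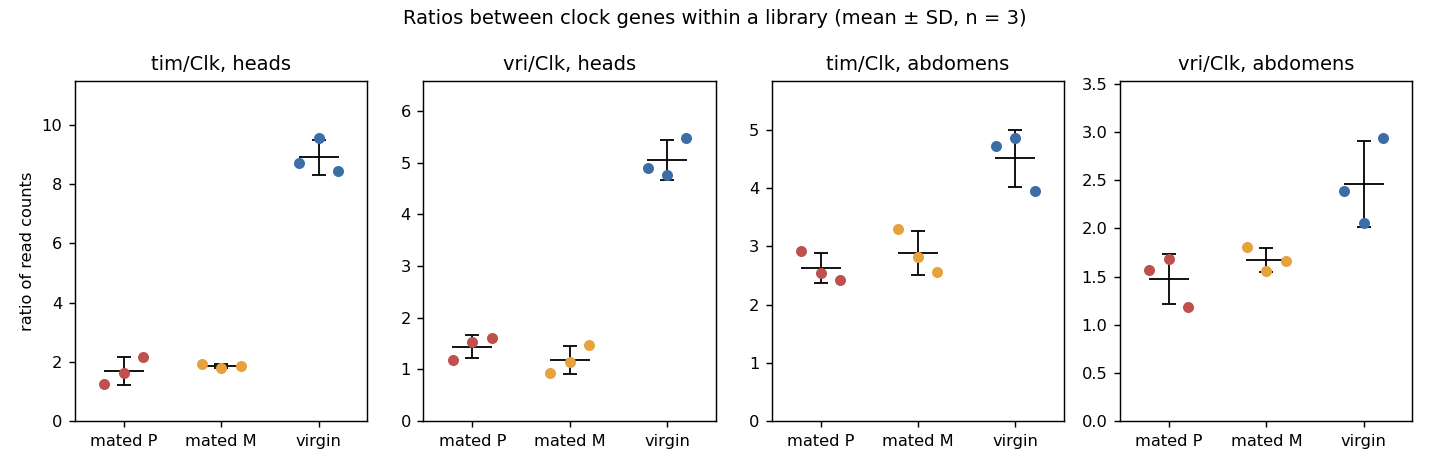
Reads of tim and of vri per read of Clk within each library, in heads and abdomens, with a point for each library and the mean ± SD of the 3 libraries of a group. In both tissues every virgin point is above every mated point, and the gap is wider in heads.

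The response to mating differed between the tissues for 5 of the 9 clock genes, where 37.2% of 11631 tested genes differed. In 4 of them the effect was lower in heads and in 1 higher (18.6% of all tested genes each way). The difference of the mating effects, head minus abdomen, was -1.82 ± 0.23 for tim (adjusted p = 7.8e-05), -1.54 ± 0.16 for vri (adjusted p = 1.7e-05), -1.41 ± 0.21 for per (adjusted p = 2.1e-04) and -1.40 ± 0.13 for Pdp1 (adjusted p = 8.8e-06). For cyc it was 0.62 ± 0.08 (adjusted p = 6.8e-05), the only called difference towards a higher value in heads. On the muscle and tubule scale tim, vri and Pdp1 kept a negative difference at -0.84, -0.51 and -0.40 and passed the test, cyc reached 1.64, and per, at -0.40, did not pass (adjusted p = 0.105). For Clk and cry no difference was called, at -0.20 ± 0.14 (interval -0.50 to 0.09) and -0.25 ± 0.17 (interval -0.62 to 0.11). On the other scale these were 0.79 and 0.73 and were called, among 4 clock genes higher and 3 lower, where 57.7% of all tested genes were higher and 1.93% lower. The difference was -0.30 ± 0.14 for cwo (adjusted p = 0.0944), or 0.72 on that scale, and -1.01 ± 1.15 for to (adjusted p = 0.510).

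Heads and abdomens also differed in which clock genes were abundant. In mated females, 8 of the 9 genes were higher and cyc lower in heads than in abdomens, where 90.7% of all tested genes differed (44.1% higher and 46.6% lower). The same 8 and 1 were called in virgins, where 88.5% differed (44.5% higher and 44.1% lower). The head minus abdomen difference in mated females was 2.52 ± 0.12 for per, 1.90 ± 0.13 for tim, 2.26 ± 0.09 for vri and 2.11 ± 0.08 for Pdp1. In virgins it was 3.94 ± 0.19 for per, 3.72 ± 0.20 for tim, 3.80 ± 0.14 for vri and 3.51 ± 0.12 for Pdp1. Clk was higher in heads by 2.54 ± 0.08 in mated and 2.75 ± 0.12 in virgin females. The difference of cyc was -0.95 ± 0.04 in mated and -1.57 ± 0.06 in virgin females. For cwo it was 0.48 ± 0.08 in mated and 0.78 ± 0.11 in virgin females, and the virgin value was not called on the muscle and tubule scale (adjusted p = 0.468). The largest differences, with the widest intervals, were those of to, at 4.76 ± 0.74 in mated and 5.77 ± 1.11 in virgin females.

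Levels of different genes were set side by side as CPM per kilobase of exon. In mated heads to (106 ± 30.2, SD, n = 6) and cry (78.5 ± 5.38) led, followed by Pdp1 (29.9 ± 3.09). The next 5 genes, vri, cyc, tim, cwo and Clk, overlapped their neighbours between 20.97 ± 3.40 for vri and 17.02 ± 1.21 for Clk, and per was last at 7.89 ± 1.55. In virgin heads the order ran from to (85.3 ± 39.4, SD, n = 3) through cry (60.8 ± 7.24), tim (55.6 ± 5.81), Pdp1 (53.6 ± 5.78) and vri (46.8 ± 6.50), whose neighbours all overlapped, to cyc (21.97 ± 1.54), cwo (16.5 ± 1.65), per (12.4 ± 1.69) and Clk (9.72 ± 0.769), which did not overlap their neighbours. The lowest level per kilobase was thus that of per in mated heads and that of Clk in virgin heads. In abdomens cyc led, at 50.4 ± 1.85 in mated and 77.5 ± 3.04 in virgin females, followed by cwo at 17.2 ± 1.58 in mated and 11.5 ± 0.166 in virgin females. The lowest abdominal level was that of per, at 1.69 ± 0.300 in mated and 0.963 ± 0.0825 in virgin females.

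The regime of the males was compared among mated females, the question the design was built around. No clock gene differed between females mated to P and to M males in either tissue by edgeR (0.0% of all tested genes in heads and in abdomens). At an unadjusted p below 0.05 there were 864 genes in heads, 1 of them a clock gene, and 185 in abdomens, again with 1 clock gene. DESeq2 called 24 genes in heads and 10 in abdomens, and limma voom called 0 in both.

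The clock gene with the smallest p in heads was per, at 37.9, 44.1 and 42.3 CPM with P males and 26.6, 29.2 and 34.2 CPM with M males. Every P library was above every M library, as in 15.0% of all tested genes. The difference, P minus M, was 0.45 ± 0.11 (interval 0.21 to 0.69), with an unadjusted p of 0.0017, rank 15 of 10886 and an adjusted p of 0.614. DESeq2 gave 0.45 with an adjusted p of 0.0441, the single clock gene it called. Without the 3 libraries with protease transcripts, which leaves M3 as the only M library, the difference was 0.33. In abdomens per overlapped between the regimes, with a difference of 0.16 ± 0.20.

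In abdomens vri had 25.5, 22.3 and 23.6 CPM with P males and 29.2, 25.9 and 28.8 CPM with M males, without overlap, as in 5.27% of all tested genes. The difference was -0.24 ± 0.11 (unadjusted p = 0.0493, adjusted p = 0.9998). For the other 8 genes in heads the P minus M difference ran from -0.48 ± 0.41 for to, through -0.25 ± 0.17 for tim, to 0.20 ± 0.13 for vri. In abdomens it was 1.01 ± 1.26 for to, -0.17 ± 0.17 for tim and 0.15 ± 0.17 for cry, and between -0.04 and 0.01 for cwo, Clk, cyc and Pdp1. In heads the 95% interval was -0.63 to 0.12 for tim, -0.29 to 0.09 for Clk and -0.13 to 0.17 for cyc. These intervals limit how large a difference of the regimes could be, and they do not show that the regimes act alike.

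**Figure D5:**
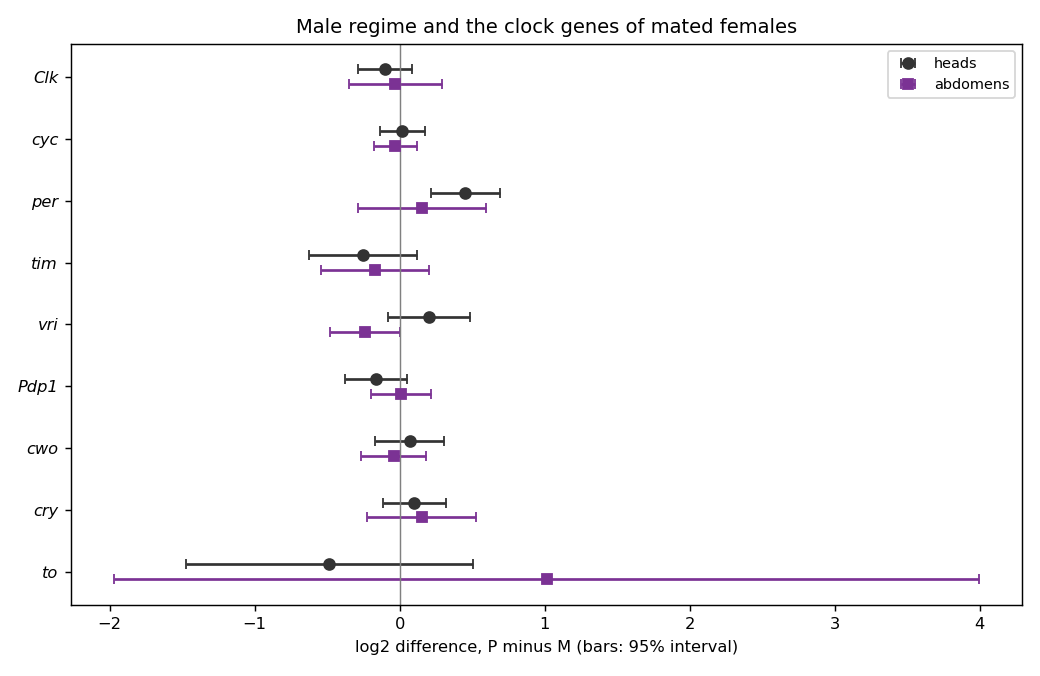
Log2 difference of each clock gene between females mated to P males and to M males, P minus M, with its 95% interval, in heads (circles) and abdomens (squares). The interval of per in heads lies above 0 and that of vri in abdomens just below 0, and those of the other genes in each tissue include 0.

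Each regime was also set against the same 3 virgin pools, so these comparisons share their controls. In heads, P minus virgin called 4 clock genes (1.38% of all tested genes), 1 higher and 3 lower (0.57% and 0.808%), and M minus virgin called 5 (0.992%), 1 higher and 4 lower (0.395% and 0.597%). The change of tim was -1.61 ± 0.17 with P males and -1.36 ± 0.17 with M males, and that of vri -1.02 ± 0.13 with P males and -1.22 ± 0.13 with M males. For Pdp1 it was -0.88 ± 0.10 with P males and -0.72 ± 0.10 with M males, and for Clk 0.80 ± 0.08 with P males and 0.90 ± 0.09 with M males. The gene that edgeR called with 1 regime alone was per, at -0.40 ± 0.11 with P males (adjusted p = 0.100) and -0.85 ± 0.11 with M males (adjusted p = 0.0113), and the P minus M test of per given above is the test of that difference. DESeq2 called 6 clock genes with each regime, 2 higher and 4 lower. Among them was per with P males (adjusted p = 0.0187) and with M males (adjusted p = 5.7e-10). Of all genes DESeq2 called 749 with P males and 341 with M males, beside 150 and 108 with edgeR. With M males in edgeR, per and Pdp1 lost their call without M1 (3 clock calls left, 16 over all genes). Without M2, per, tim and Pdp1 lost it (2 clock calls left, 12 over all genes). Also with M males, tim lost its call without M3 and without virgin 3 (4 clock calls left each, 42 and 30 over all genes). With P males, vri lost its call without P1 and without P2 (adjusted p up to 0.0595). There 3 clock calls were left each, and 11 and 20 over all genes. In abdomens, 7 clock genes differed with P males (47.6% of all tested genes) and 8 with M males (45.4%). The gene not called with P males was tim, at 0.31 ± 0.17 with P males (adjusted p = 0.148) and 0.48 ± 0.17 with M males (adjusted p = 0.0402).

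How clock genes varied among libraries of the same group was mixed. Over the 9 head libraries, with each group's mean removed, the Pearson correlation of log2 CPM was positive for 21 of 36 pairs of clock genes, with a median of 0.12. The highest was 0.91 between per and vri, followed by 0.86 between cry and to and 0.82 between tim and Pdp1, and the lowest was -0.74 between Pdp1 and cry. Between per and tim it was 0.18 and between per and Clk -0.04. In abdomens 18 of the 36 pairs were positive, with a median of 0.0081, a highest value of 0.80 between Clk and to and a lowest of -0.77 between cyc and cry. There it was 0.77 between tim and Clk, 0.20 between per and vri and 0.37 between tim and Pdp1. These values are a description, since the points share library depth and dissection.

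Outside the clock genes, the patterns most like tim over the 9 head libraries, group differences included, were those of CG10175 (r = 0.975), CG7135 (0.972), Inx2 (0.971) and CG43092 (0.965), among 8916 genes. Pdp1 was closer to tim than any of them (0.986). The patterns most like Clk in heads were those of Sin3A (0.978), CG1552 (0.954), arg (0.952) and CG16743 (0.947). In abdomens, among 8272 genes, CG18135 (0.960), Gbs-76A (0.954), qin (0.945) and asRNA:CR44179 (0.944) came closest to tim, and nkd (0.991), CG3829 (0.987), Cyp4p3 (0.987) and fru (0.986) to Clk. All of these correlations include the difference between mated and virgin libraries.

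Of a wider list of 36 genes that act on or downstream of the clock, 0 rose and 2 fell with mating in heads. Of all 10886 tested genes, 0.863% rose and 1.35% fell. The median change was -0.04 for the list and -0.01 for all genes. The 2 genes were Slob, which binds a potassium channel and cycles in photoreceptors, and norpA, the phospholipase C of the light response. Slob had 496 ± 78.9 CPM in mated heads and 717 ± 59.7 CPM in virgin heads (SD, n = 6 and 3), a change of -0.50 ± 0.10 (adjusted p = 0.0331). For norpA the level was 1309 ± 138 CPM in mated and 1770 ± 177 CPM in virgin heads, a change of -0.40 ± 0.08 (adjusted p = 0.0410). Neither passed without the 3 libraries with protease transcripts, at -0.44 for Slob and -0.37 for norpA. The neuropeptide gene Pdf, the output signal of clock neurons, had 53.3 ± 5.99 CPM in mated and 59.9 ± 7.39 CPM in virgin heads.

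In abdomens, where 34 of the 36 genes could be tested, 7 rose and 12 fell with mating (29.0% and 25.2% of all tested genes), whereas 0 rose and 29 fell on the muscle and tubule scale (3.13% and 70.9%). The median of the list was -0.14, beside 0.04 for all genes. The higher genes with the smallest p were kay, the fly Fos gene, at 0.62 ± 0.07, and qsm (0.47 ± 0.10), wake (0.55 ± 0.12) and the Pdf receptor gene Pdfr (0.54 ± 0.15), each negative on the other scale at -0.44, -0.58, -0.51 and -0.50. The lower ones were the chromatin remodeller gene brm (-0.45 ± 0.08), the transcription factor gene Mef2 (-0.30 ± 0.06), the kinase gene dco, also named doubletime, whose product phosphorylates Per (-0.37 ± 0.08), and Lsm12a (-0.31 ± 0.07), matched to the listed Lsm12 through a synonym. Between P and M males, edgeR called 0 genes of the wider list in either tissue.

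Some clock genes overlap other genes on the BDGP6 assembly. The gene per (FBgn0003068) lies at X:2685580-2692780 on the plus strand and shares its last 49 bases with dyw on the opposite strand, which held 0.119 to 2.38 CPM. The gene cry (FBgn0025680, 3R:19212154-19215442, plus strand) shares 9 bases with vib on the opposite strand, which held 122 to 166 CPM. Within Clk (FBgn0023076, 3L:7763233-7775603, minus strand) lies CG32371 on the same strand, at 0 to 0.523 CPM, and opposite vri (FBgn0016076, 2L:5288944-5311223, plus strand) a long noncoding RNA at no more than 0.103 CPM. The gene tim (FBgn0014396, 2L:3493986-3508119) shares 151 bases with snoRNA:Or-CD16 on the same strand and 667 bases with lncRNA:CR46495 on the opposite strand, and cry 574 bases with lncRNA:CR46393 on the same strand. The deposited count table has no rows for these 3 RNAs. The remaining genes are Pdp1 (FBgn0016694, 3L:7811458-7867369), cyc (FBgn0023094, 3L:19813770-19815938), cwo (FBgn0259938, 3R:10388258-10400752) and to (FBgn0039298, 3R:25240180-25241668).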

How the data were processed

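The deposited table holds whole-number counts of reads per gene, not normalised by the authors. Per the submitters' processing notes, Trimmomatic 0.33, TopHat2 2.1.0, HTSeq 0.6.1 and the BDGP6 assembly were used to make them, and, per the labels, the RNA kit keeps the strand. Which annotation was counted, and how strand and ambiguous reads were treated, is not given in the sources used here. Symbols and coordinates came from Ensembl release 115 of BDGP6, which matched 17387 of 17552 identifiers. The 36 columns are 2 runs of each of 18 libraries. Per degree of freedom, chi-square between both runs was 1.81 to 3.32 and between libraries of a group 38.7 to 226.6, so runs were summed.

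Counts were tested with edgeR 4.0.16 in R 4.3.3 (TMM scaling, its expression filter, robust dispersions), with 1 model of 3 groups per tissue and 1 model of all 18 libraries for differences between tissues, and a threshold of 0.05 on the adjusted p. Mated is the mean of both male regimes with equal weight. The spread between replicates, as the biological coefficient of variation, was 0.272 in heads and 0.172 in abdomens. Nothing in the labels says that the virgin pools came from separate cultures, so p-values measure the spread between pools. Levels are CPM of all counts, and correlations use log2 CPM with 0.5 added to counts. DESeq2 1.42.0, limma 3.58.1 voom, other scalings, no filter, run 1 alone, a replicate block and libraries left out were tried beside them. The clock genes, the wider list, the marker lists, the scaling on muscle and tubule genes and the libraries left out were chosen with earlier results of these data known. All 9 clock genes are named, up to 4 genes of the wider list per direction by smallest p, and the 4 genes outside the list most like tim and Clk per tissue, among tested genes with a mean log2 CPM of at least 1. Of 140 listed symbols, 2 germline symbols were not matched. Promoter sequences were not used here.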

Additional observations from a re-analysis of the deposited data

Results flagged for a closer look

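For 5 clock genes the effect of mating differed between heads and abdomens by the test of that difference in edgeR, head minus abdomen: -1.82 for tim, -1.54 for vri, -1.41 for per, -1.40 for Pdp1 and 0.62 for cyc on the log2 scale. In 4 of them, tim, vri, per and Pdp1, mated females were lower than virgins in heads and higher in abdomens on the usual scale, while on the muscle and tubule scale tim, vri and Pdp1 were lower in both tissues and per in abdomens, at -0.22, did not pass (adjusted p = 0.239). For cyc the change was -0.03 in heads and -0.59 in abdomens. No clock gene had a mated library far from the other 5 of its tissue by Dixon's test, run on 18 groups of 6 libraries, of which chance would mark about 1 in 20.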

How the results depend on the processing

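Leaving out M1, M2 and virgin 1 in heads took the clock genes called to 0 in mated minus virgin, P minus virgin and M minus virgin, and P minus M then reversed to -0.015 for vri, 0.017 for Clk and -0.011 for cyc; fewer libraries remain in that fit, and of all genes 0 were called against virgins and 1 in P minus M. DESeq2 called 1 clock gene in heads between P and M. The muscle and tubule scaling of abdomens, which shifts all genes down by construction, called 5 clock genes (all lower) in mated minus virgin and 4 (all lower) in P minus virgin. It reversed mated minus virgin to -0.22 for per, -0.64 for tim, -0.60 for vri, -0.40 for Pdp1, -0.45 for cwo and -0.30 for cry; P minus virgin to -0.12, -0.70, -0.70, -0.37, -0.45 and -0.20 for the same genes in that order; and M minus virgin to -0.33, -0.58, -0.51, -0.43, -0.46 and -0.40, with -0.047 for to. It also reversed P minus M in abdomens to 0.0091 for cwo, 0.026 for Clk and 0.024 for cyc, and the head minus abdomen difference to 0.72 for cwo, 0.79 for Clk and 0.73 for cry. P minus M for Pdp1 in abdomens was -0.016 with RLE scaling and with DESeq2, and P minus virgin for cyc in heads was 0.013 with run 1 alone. The cause of these last 3 was not tested. Leaving out each library in turn gave 5 to 6 clock genes called in heads mated minus virgin and 3 to 5 in P minus virgin. In M minus virgin of heads it gave 2 to 5. There 3 were left without M1 and 2 without M2, where 16 and 12 of all genes were called. The same comparisons of abdomens gave 7 to 8, 6 to 8 and 6 to 8, and the difference between tissues gave 5 to 6. Signs turned only in changes that the main fit did not call. In heads cyc ranged from -0.080 to 0.014 (mated minus virgin), -0.071 to 0.023 (P minus virgin), -0.090 to 0.0047 (M minus virgin) and -0.022 to 0.045 (P minus M). Also in heads, cwo ranged from -0.039 to 0.15 (P minus M) and to, more widely, from -0.21 to 0.48 (P minus virgin). In abdomens, P minus M, Pdp1 ranged from -0.029 to 0.086, cwo from -0.11 to 0.081, Clk from -0.16 to 0.091 and cyc from -0.054 to 0.010. With the replicate number as a block, 5 clock genes (124 of all genes) were called in heads and 7 (4912 of all genes) in abdomens, mated minus virgin, without cry in heads (adjusted p = 0.0552) and tim in abdomens (0.0536). Same-numbered samples of different groups share only a number, and their deviations correlated between -0.505 and 0.684 in heads and -0.456 and 0.022 in abdomens. Heads and abdomens of 1 mated pool share a male population; pools correlated across tissues between -0.244 and 0.162, and with the pool as a block 5 clock genes were again called in the difference between tissues. Over all genes in heads, mated minus virgin gave 636 calls with DESeq2 and 156 with limma voom, beside 241 with edgeR; P minus virgin gave 749 with DESeq2 and 87 with limma voom, beside 150, and M minus virgin 341 and 56, beside 108. Reads of to in abdomens were uneven, from 9 in virgin 3 to 728 in P3, and did not follow depth. M1, the deepest abdomen library at 56772245 counts, held 38, and M3, the shallowest at 41057456 counts, held 333.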
